A study of Mus musculus with 98 samples.

Results

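The 33 genes described here encode enzymes and regulators of sterol and fatty acid synthesis in the mouse. They were chosen by gene symbol, and their mouse rows were found in both deposited tables of raw counts, 33 of 19689 mouse rows in the liver table. All 33 passed the filter on low counts in each of the 4 tissues, namely liver, skeletal muscle and 2 hypothalamic regions: the suprachiasmatic nucleus (SCN), seat of the central clock, and the arcuate nucleus (ARC), a centre of feeding control. By role, 10 belong to the cholesterol precursor pathway from acetyl-CoA to squalene epoxide, counting Ggps1, which stands off that route. Another 9 make lanosterol (Lss) or convert it to cholesterol, 5 belong to regulation and sterol transport, and 9 to fatty acid synthesis.

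All groups were 10-week-old male FRGN mice, which lack Fah, Rag2 and Il2rg on a non-obese diabetic background. Loss of Fah, an enzyme of tyrosine breakdown, kills the host's hepatocytes unless nitisinone is given, and loss of Rag2 and Il2rg removes lymphocytes, so that transplanted hepatocytes can refill the liver. The livers had received human (Hu) or murine (Mu) hepatocytes through the spleen, and the mice of both arms were cycled on nitisinone, sulfamethoxazole and trimethoprim, and dextrose in the drinking water. The labels state that only mice with more than 70% human repopulation were used. Tissue was taken at zeitgeber times (ZT) 2, 6, 10, 14, 18 and 22, with 15 Hu and 12 Mu livers, 15 and 12 muscles, and 10 and 12 samples each of ARC and SCN, 98 libraries in all. In Hu livers the mouse cells are the host's own remaining cells, whereas in Mu livers they are host cells and transplanted hepatocytes together. Whether some human reads were counted in mouse rows of Hu livers was not tested, and this bears on each Hu level and on each slope against human share below.

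Cholesterol is built from acetyl-CoA through mevalonate, farnesyl diphosphate, squalene and lanosterol, and fatty acids are built from cytosolic acetyl-CoA by acetyl-CoA carboxylase and fatty acid synthase. Srebf2 and Srebf1 encode the SREBP transcription factors, which are held in the endoplasmic reticulum by the INSIG proteins when sterols are abundant and otherwise drive most genes of both pathways. In liver, SREBP-1c also answers to insulin and feeding, and many lipogenic genes peak in the active phase of rodents.

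Mouse counts per library, in M (mega), ran from 7.70 to 87.9 M in Hu livers, 97.1 to 118 M in Mu livers, 43.1 to 92.1 M in muscle, 23.7 to 47.1 M in ARC and 25.5 to 34.9 M in SCN. The human share of all counts had a lowest, median and highest value of 15.9%, 58.7% and 93.1% in Hu livers, with 4 of 15 above 70%, and was 0.00592% to 0.0204% in Mu livers. Read share and share of cells are different quantities. The Hu liver at ZT18 replicate 3 had the highest human share and the fewest mouse counts. Levels are given as CPM (counts per M) of mouse counts, scaled by trimmed mean of M values (TMM) within a tissue. Log2 differences and rhythms come from edgeR's quasi-likelihood fit over all genes, with Benjamini-Hochberg adjusted p under 0.05 as the threshold for a call. The labels do not say that every library came from a different animal, so p-values measure the spread between these samples.

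Promoter sequences in the RefSeq table (GRCm38.p6) were found for 28 of the 33 genes; Fdps, Fdft1, Sqle, Stard4 and Scd1 had none there. Each window ran from 250 bases before to 50 bases after a transcript start, and some genes had several windows. The CCAAT box (CCAAT, bound by NF-Y, a known partner of SREBPs) was present on either strand in 25 of the 28 genes, 89.3%, against 42.5% of the 11548 genes tested in liver that had a window. The GC box (GGGCGG, bound by SP1) was present in 21 genes, 75.0%, against 64.4%. The E-box (CACGTG, bound by clock factors among others) was present in 4 genes, Dhcr7, Hsd17b7, Insig1 and Sc5d, 14.3% against 11.02%. The classical sterol regulatory element was searched in a short form (TCACNCCAC), found in 1 gene, Hmgcs1, 3.57% against 1.44%. A long form with an A before it was found in 0 of the 28 genes and 0.251% of the background. These are matches of letters in a short window and say nothing on binding.

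The bases before the start are printed for 6 genes, picked for a motif or for their liver difference. Hmgcs1 carried the short sterol element, Insig1 and Sc5d carried E-boxes, Fasn and Thrsp were among the genes with the largest liver differences, and Ggps1 went the other way. Capitals mark the short sterol element, the E-box and the CCAAT box on either strand. In Fasn, 2 CCAAT matches on opposite strands overlap; in the other 5 printed promoters no matches overlap. Positions are on GRCm38: Hmgcs1 chr13:119690101-119690350, plus strand; Insig1 chr5:28071162-28071411, plus strand; Sc5d chr9:42264301-42264550, minus strand. The others are Fasn chr11:120824548-120824797, minus strand; Thrsp chr7:97417551-97417800, minus strand; and Ggps1 chr13:14063489-14063738, minus strand.
Hmgcs1: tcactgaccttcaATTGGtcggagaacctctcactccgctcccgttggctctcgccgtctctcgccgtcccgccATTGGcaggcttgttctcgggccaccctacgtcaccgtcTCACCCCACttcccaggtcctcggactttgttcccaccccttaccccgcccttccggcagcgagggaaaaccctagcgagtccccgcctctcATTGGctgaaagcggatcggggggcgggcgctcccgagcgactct
Insig1: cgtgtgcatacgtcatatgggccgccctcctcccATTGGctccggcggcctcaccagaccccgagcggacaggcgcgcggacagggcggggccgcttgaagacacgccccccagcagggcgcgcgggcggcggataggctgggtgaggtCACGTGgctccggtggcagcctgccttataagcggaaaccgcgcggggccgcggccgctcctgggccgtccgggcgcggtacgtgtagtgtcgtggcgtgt
Sc5d: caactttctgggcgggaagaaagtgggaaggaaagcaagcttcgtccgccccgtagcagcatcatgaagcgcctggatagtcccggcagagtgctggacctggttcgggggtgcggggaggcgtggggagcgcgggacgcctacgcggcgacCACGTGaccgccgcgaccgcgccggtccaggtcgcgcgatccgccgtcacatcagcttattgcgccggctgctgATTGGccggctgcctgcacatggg
Fasn: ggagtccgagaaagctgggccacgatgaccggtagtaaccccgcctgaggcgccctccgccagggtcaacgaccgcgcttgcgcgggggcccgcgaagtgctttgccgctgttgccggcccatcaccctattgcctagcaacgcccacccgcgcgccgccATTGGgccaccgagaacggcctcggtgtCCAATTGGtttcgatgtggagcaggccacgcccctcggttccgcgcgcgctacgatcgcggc
Thrsp: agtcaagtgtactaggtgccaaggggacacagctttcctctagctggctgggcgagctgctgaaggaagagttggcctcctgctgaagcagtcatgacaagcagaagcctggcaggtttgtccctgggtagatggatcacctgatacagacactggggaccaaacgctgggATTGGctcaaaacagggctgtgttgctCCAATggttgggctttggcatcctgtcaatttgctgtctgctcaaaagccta
Ggps1: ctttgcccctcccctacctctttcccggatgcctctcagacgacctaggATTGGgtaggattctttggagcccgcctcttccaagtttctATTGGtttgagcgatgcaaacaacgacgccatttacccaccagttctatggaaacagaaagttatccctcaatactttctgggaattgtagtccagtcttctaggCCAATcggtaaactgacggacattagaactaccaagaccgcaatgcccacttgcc
The short sterol element of Hmgcs1 lay 137 bases before the start, the E-box of Insig1 101 bases and that of Sc5d 98 bases before it. CCAAT boxes lay within 100 bases before the start in Hmgcs1, Sc5d, Fasn, Thrsp and Ggps1, whereas that of Insig1 lay 216 bases before it.

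In liver, the first question was whether mouse transcripts of these pathways differed between Hu and Mu livers. Of the 33 genes, 29 were lower in Hu livers (87.9% of them, against 37% of all 14977 genes tested), 1 was higher (Ggps1, against 42.5%), and Sqle, Cyp51 and Srebf2 did not pass the test. The median log2 difference was -1.54 over the 33 genes and 0.07 over all genes. Every Hu liver lay below every Mu liver for 10 genes, 30.3% of the 33 against 12.5% of all genes: Acat2, Fdps, Ebp, Sc5d, Tm7sf2, Srebf1, Acss2, Acacb, Scd1 and Thrsp. Fewer cells of a type and less RNA per cell cannot be told apart in these bulk samples.

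The markers of other cells moved with this result. Of 12 mouse hepatocyte markers, 10 were also lower in Hu livers, with a median of -1.30; their summed level ran from 12317 to 129107 CPM in Hu and from 139288 to 190653 CPM in Mu livers, and none was at 0. All 5 bile duct markers and all 5 stellate cell markers were higher, by medians of 2.16 and 1.99; summed levels ran from 236 to 867 CPM in Hu against 73.4 to 162 CPM in Mu livers, and from 554 to 4681 CPM against 389 to 657 CPM. All 5 markers of sinusoidal endothelium were higher as well, and 3 of 5 Kupffer cell markers. Of the 33 genes, 22 had a more negative difference than the median hepatocyte marker. When libraries were scaled to the 12 hepatocyte markers in place of TMM, the median of all genes moved to 1.74, 4 of the 33 genes were higher (Ggps1, Sqle, Cyp51 and Srebf2) and 13 lower, against 87.7% and 3.89% of all genes. With counts divided by all rows, human and mouse, the median of all genes was -0.70. Of the 33 genes, 32 were lower and none higher, against 60.9% and 16.9% of all genes. Ggps1 was among those lower, at -0.36. Relative to the median of all genes, the median of the 33 was -1.60 with TMM, -1.94 with hepatocyte markers and -1.48 with all rows. Under each of these 3 scalings 32 of 33 lay below that median. A scaling changes all genes of a library by the same factor, so it could hardly alter this count. The likeness of the 3 scalings is therefore no test of the difference.

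**Figure D1:**
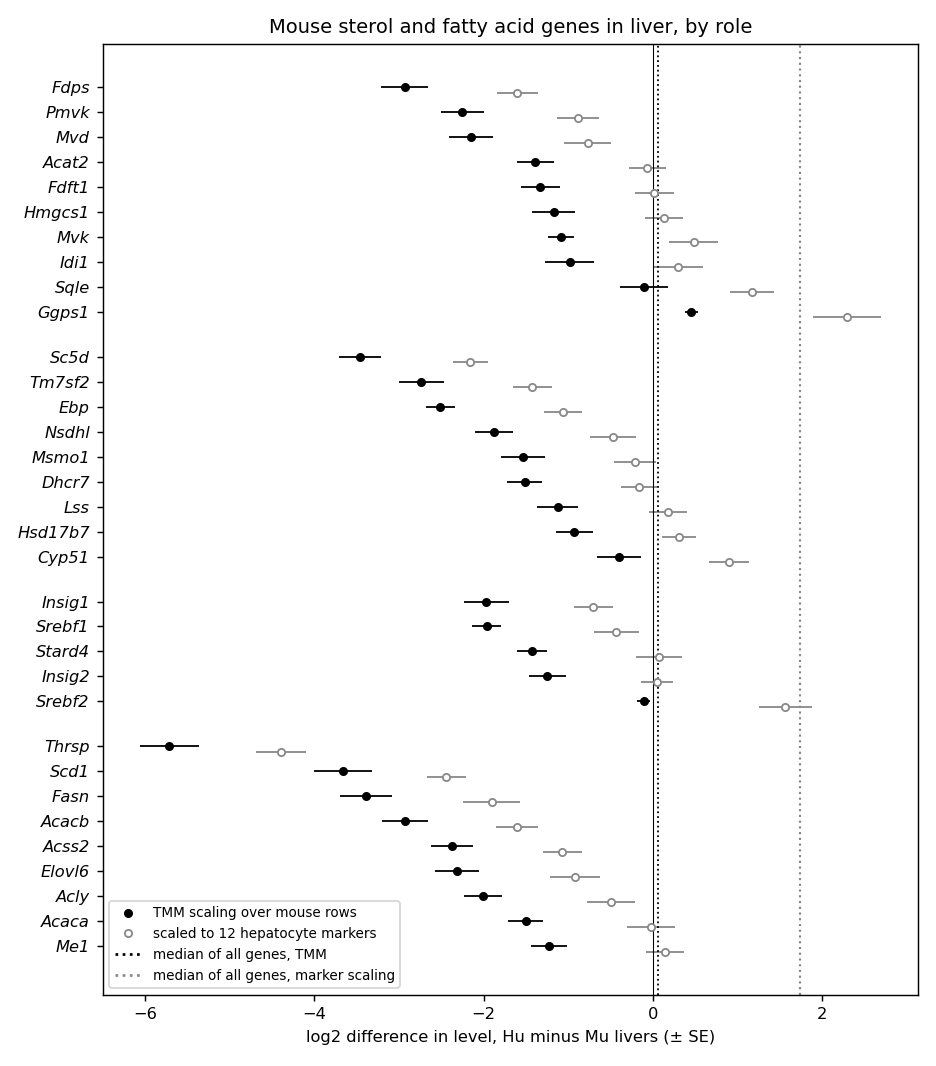
Log2 difference in level between Hu (n = 15) and Mu (n = 12) livers for each of the 33 genes, ordered by role, with standard errors; filled points use TMM scaling over mouse rows, open points scaling to 12 hepatocyte markers, and dotted lines give the median of all genes under each. With TMM, 29 genes were lower and Ggps1 was higher, and with marker scaling 13 were lower and 4 higher. Under each scaling 32 of the 33 lay left of its dotted line, a count that a shift of all genes together can hardly alter.

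Among the enzymes of fatty acid synthesis, all 9 were lower in Hu livers with TMM scaling, with a median of -2.37; with hepatocyte marker scaling 6 of them stayed lower at the threshold, while Acly, Acaca and Me1 were not called. In Mu livers the lowest, median and highest Thrsp levels were 267, 1105 and 2903 CPM, and in Hu livers 5.74, 11.98 and 76.9 CPM. Thrsp encodes a small nuclear protein tied to lipogenesis, and no Hu liver came near the lowest Mu liver. Its difference was -5.72 ± 0.35 (SE, adjusted p = 1.29e-12), the largest of the 33 genes, and -4.397 with marker scaling. Levels of Scd1, from lowest over median to highest, were 11177, 16838 and 34234 CPM in Mu livers and 197, 1639 and 3221 CPM in Hu livers. Scd1, the delta-9 desaturase that makes oleate, had the highest level of the 33 per exon length in both arms, at 3884 CPM per kb in Mu and 314 CPM per kb in Hu livers. Its lowest Hu value, in ZT18 replicate 3, stood far below the others, and the difference was -3.66 ± 0.34 (SE, adjusted p = 1.48e-09).

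For Fasn, Mu livers had 359.9, 2426 and 6258 CPM as lowest, median and highest value, and Hu livers had 92.2, 175 and 498 CPM. Fasn, the synthase that builds palmitate, overlapped between the arms, with a wide range in Mu livers; all 15 Hu livers were below the Mu median. The Fasn difference was -3.39 ± 0.31 (SE, adjusted p = 9.10e-10). Acacb had a lowest, median and highest level of 83.96, 257 and 639 CPM in the Mu livers and of 12.1, 37.9 and 76.2 CPM in the Hu livers. Acacb encodes the mitochondrial acetyl-CoA carboxylase, whose malonyl-CoA restrains fatty acid oxidation, and it did not overlap between arms. The log2 difference was -2.93 for Acacb and -1.500 for Acaca, the cytosolic enzyme of synthesis. The remaining members were Acss2 at -2.37 and Elovl6 at -2.31, then Acly, the source of cytosolic acetyl-CoA, at -2.01, and Me1, a source of NADPH, at -1.22.

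In the cholesterol precursor pathway, 8 of 10 genes were lower with TMM scaling, Ggps1 was higher and Sqle was not called, with a median of -1.25; with marker scaling Fdps, Pmvk and Mvd stayed lower, while Ggps1 and Sqle were higher. In Mu livers the lowest, median and highest Fdps levels were 149, 392 and 678 CPM, and in Hu livers 22.2, 43.1 and 126 CPM. Fdps makes farnesyl diphosphate, the branch point to sterols, prenyl groups and ubiquinone, and no Hu liver reached the lowest Mu liver. The difference was -2.93 ± 0.28 (SE, adjusted p = 2.18e-09). Levels of Ggps1, from lowest over median to highest, were 10.1, 11.9 and 14.2 CPM in Mu livers and 13.02, 15.99 and 24.3 CPM in Hu livers. Ggps1 extends farnesyl diphosphate to geranylgeranyl diphosphate for protein prenylation, and so stands off the route to cholesterol. All 15 Hu livers were above the Mu median for Ggps1, although the ranges overlapped, and the difference was 0.45 ± 0.08 (SE, adjusted p = 1.32e-05).

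Of the other precursor genes, Pmvk and Mvd, which act in sequence after mevalonate kinase, had differences of -2.25 and -2.15. Mvk itself, Hmgcs1, which makes HMG-CoA, Acat2, Fdft1 and Idi1 lay between -1.39 and -0.98. Sqle, the epoxidase that commits squalene to sterols, had a value of -0.11 ± 0.28 (SE, adjusted p = 0.737). Neighbouring steps of the pathway therefore had quite unequal values, from Fdps at -2.93 through Fdft1 at -1.33 to Sqle near 0 on the TMM scale.

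Of the 9 genes that make lanosterol (Lss) or convert it to cholesterol, 8 were lower with TMM scaling and Cyp51 was not called. Their median was -1.54. With marker scaling Sc5d, Tm7sf2 and Ebp stayed lower and Cyp51 was higher. For Sc5d, Mu livers had 271, 741 and 1010.2 CPM as lowest, median and highest value, and Hu livers had 19.8, 44.8 and 121 CPM. Sc5d encodes the C5 desaturase near the end of the route, and its groups lay far apart, with a difference of -3.46 ± 0.25 (SE, adjusted p = 2.04e-11). Tm7sf2 had a lowest, median and highest level of 119, 187 and 292 CPM in the Mu livers and of 10.4, 21.4 and 68.1 CPM in the Hu livers. Tm7sf2, a C14 sterol reductase, had a difference of -2.73 ± 0.26 (SE, adjusted p = 2.60e-09). Ebp, the sterol isomerase, was at -2.51, and Nsdhl, Msmo1, Dhcr7, Lss and Hsd17b7 ran from -1.88 to -0.93. Cyp51, the lanosterol 14-demethylase, was at -0.40 ± 0.26 (SE, adjusted p = 0.164), with 12 of 15 Hu livers below the Mu median. Without the Hu liver at ZT18 replicate 3 or any other single library, the counts of lower genes over the 33 stayed at 29 or 30.

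Among the 5 regulators and transporters, Insig1, Srebf1, Stard4 and Insig2 were lower with TMM scaling; Srebf2 was not called with TMM and was higher, by 1.57, with marker scaling, where Insig1 alone stayed lower. In Mu livers the lowest, median and highest Srebf1 levels were 281, 783 and 1742 CPM, and in Hu livers 100.5, 168 and 271 CPM. No Hu liver overlapped the Mu livers for Srebf1, and the difference was -1.97 ± 0.17 (SE, adjusted p = 4.95e-10). Levels of Srebf2, from lowest over median to highest, were 52.6, 72.2 and 85.7 CPM in Mu livers and 47.7, 62.2 and 87.6 CPM in Hu livers. For Srebf2 the 2 arms overlapped almost entirely, and the difference was -0.11 ± 0.08 (SE, adjusted p = 0.212). Insig1, itself a sterol-responsive gene, was at -1.97; Stard4, a carrier of cholesterol between membranes, was at -1.43.

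Other genes of the pathways came from 3 lists. All 8 genes of the remaining sterol synthesis and uptake list were lower in Hu livers, against 37% of all genes. Their median was -1.30, the same as that of the 12 hepatocyte markers, and the lowest value was -2.56. Of 16 further lipogenic genes, 13 were lower, such as Elovl5 at -3.14 and Fads1 at -2.59, elongase and desaturase of long unsaturated chains. The other 3 were higher: Scd2, a desaturase isoform, at 2.41 ± 0.23 (SE, adjusted p = 1.58e-09), and G6pdx and Pgd, enzymes of the pentose phosphate route to NADPH, at 2.34 and 1.65. Scd1 and Scd2 therefore had differences of opposite sign with TMM. The 8 genes of sterol export and the oxysterol response were split, with 3 higher (Abcg1, Mylip and Abca1) and 2 lower (Lpcat3 and Nr1h3). Of all genes, 37% were lower and 42.5% higher. These counts are descriptions and were not tested as lists, and the 3 lists were not refitted with hepatocyte marker scaling.

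The second question was whether the genes cycled over the day. In Mu livers, 6 of the 33 had a called 24 h rhythm, 18.2% against 17.3% of all genes tested, a share near the background. They were the fatty acid genes Thrsp, Fasn, Elovl6 and Acly and the regulators Srebf1 and Insig2; 0 of the 19 sterol pathway enzymes was called. In Hu livers 0 of the 33 were called, against 0.167% of all genes, and 0 had a called difference in rhythm between arms, against 1.28%. At an unadjusted p under 0.05, 7 genes were rhythmic in Mu (against 31.7% of all genes), 4 in Hu (15.8%) and 1, Srebf1, differed (21%), and DESeq2 called 7, 1 and 0, against 25.2%, 3.45% and 7.69% of all genes. An amplitude is the log2 distance from the fitted mean to the fitted peak.

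Srebf1 in Mu livers stood at 329 and 418 CPM at ZT2, 281 and 479 CPM at ZT6, 319 and 768 CPM at ZT10, 1742 and 1254 CPM at ZT14, 797 and 1078 CPM at ZT18, and 926 and 1016 CPM at ZT22. In Hu livers it stood at 227, 143 and 140.3 CPM at ZT2, 100.5, 157 and 138 CPM at ZT6, 205 and 166 CPM at ZT10, 252 and 219 CPM at ZT14, 168, 271 and 112 CPM at ZT18, and 194 and 201 CPM at ZT22. The Mu livers were low from ZT2 to ZT6 and high from ZT14 on, and the Hu livers stayed below the lowest Mu liver at every time. Srebf1 in Mu had an amplitude of 1.004 ± 0.18 (SE) and a fitted peak at ZT16.7 ± 0.678 h (adjusted p = 0.00232), and in Hu an amplitude of 0.26 ± 0.15 (SE) and a fitted peak at ZT16.6 ± 2.498 h (adjusted p = 0.577). The difference in rhythm had an unadjusted p of 0.0176 and an adjusted p of 0.162, so it did not pass the test.

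Thrsp in Mu livers stood at 267 and 293 CPM at ZT2, 289 and 559 CPM at ZT6, 408 and 1803 CPM at ZT10, 2903 and 2375 CPM at ZT14, 1569 and 1553 CPM at ZT18, and 1189.7 and 1020.0 CPM at ZT22. In Hu livers it stood at 11.98, 7.597 and 5.74 CPM at ZT2, 6.91, 5.796 and 9.297 CPM at ZT6, 35.3 and 24.6 CPM at ZT10, 76.9 and 10.4 CPM at ZT14, 37.6, 25.6 and 5.75 CPM at ZT18, and 23.7 and 12.8 CPM at ZT22. In both arms the mean was lowest at ZT2 or ZT6 and the highest single value fell at ZT14, at very different levels. Thrsp in Mu had an amplitude of 1.496 ± 0.31 (SE) and a fitted peak at ZT15.5 ± 0.791 h (adjusted p = 0.00942). In Hu it had an amplitude of 1.202 ± 0.27 (SE) and a fitted peak at ZT14.9 ± 0.917 h (adjusted p = 0.106), the closest to a call of the 33 in that arm. The fitted peaks differed by -0.66 h, Hu minus Mu, within their error. Without the Hu livers above 70% human share, or without those under 20 M mouse counts, Thrsp was the 1 gene of the 33 called in Hu; DESeq2 also called it.

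Fasn in Mu livers stood at 652 and 1747 CPM at ZT2, 957 and 1385 CPM at ZT6, 359.9 and 1675 CPM at ZT10, 6258 and 3104 CPM at ZT14, 4202 and 5949 CPM at ZT18, and 5722 and 3244 CPM at ZT22. All 6 libraries from ZT14 to ZT22 were above all 6 from ZT2 to ZT10, and the Mu fit had an amplitude of 1.37 ± 0.30 (SE) and a fitted peak at ZT18.1 ± 0.847 h (adjusted p = 0.0118). In Hu livers Fasn stood at 224, 175 and 123 CPM at ZT2, 92.2, 141 and 100.1 CPM at ZT6, 498 and 142 CPM at ZT10, 475 and 138 CPM at ZT14, 239, 486 and 123 CPM at ZT18, and 233 and 267 CPM at ZT22, with libraries of the same time up to severalfold apart at ZT10, ZT14 and ZT18. 

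Elovl6, which extends palmitate to stearate, stood in Mu livers at 104 and 239.6 CPM at ZT2, 220.2 and 182 CPM at ZT6, 114 and 302 CPM at ZT10, 902 and 413 CPM at ZT14, 858 and 579 CPM at ZT18, and 679.8 and 329 CPM at ZT22. Here too all 6 libraries from ZT14 to ZT22 were above all 6 earlier ones, and the fit had an amplitude of 1.14 ± 0.27 (SE) and a fitted peak at ZT17.3 ± 0.8995 h (adjusted p = 0.0149). In Hu livers Elovl6 ran from 26.4 to 142 CPM, with the lowest and the highest both at ZT18. Acly in Mu livers stood at 431 and 770.2 CPM at ZT2, 636 and 855 CPM at ZT6, 238 and 909 CPM at ZT10, 1286 and 597 CPM at ZT14, 1812 and 1524 CPM at ZT18, and 2497 and 1161 CPM at ZT22. The ZT18 and ZT22 libraries were above all other Mu libraries, except that 1 ZT14 library exceeded 1 of the ZT22 pair, and the fit had an amplitude of 0.81 ± 0.23 (SE) and a fitted peak at ZT19.6 ± 1.08 h (adjusted p = 0.0331). In Hu livers Acly ran from 147 to 429.7 CPM. The Acly call in Mu was lost in 4 of the 27 fits that left out 1 library, with adjusted p up to 0.0968.

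Insig2, whose liver transcript is known to be repressed by insulin, was at its lowest in Mu livers at ZT10 and ZT14. In Mu livers it stood at 895 and 811 CPM at ZT2, 677 and 638 CPM at ZT6, 201 and 192 CPM at ZT10, 265 and 168 CPM at ZT14, 695 and 557 CPM at ZT18, and 923 and 691 CPM at ZT22. All 4 libraries at ZT10 and ZT14 were below all other Mu libraries, and the fit had an amplitude of 1.16 ± 0.23 (SE) and a fitted peak at ZT0.0626 ± 0.764 h (adjusted p = 0.00911). In Hu livers it stood at 317, 207 and 266 CPM at ZT2, 295, 234 and 290.4 CPM at ZT6, 64.5 and 118 CPM at ZT10, 224 and 138 CPM at ZT14, 281, 207 and 48.9 CPM at ZT18, and 399 and 195 CPM at ZT22, and its fit had an amplitude of 0.58 ± 0.22 (SE) and a fitted peak at ZT0.665 ± 1.33 h (adjusted p = 0.318). The low Hu values fell at ZT10 and in ZT18 replicate 3. In Mu livers the fitted peaks of Thrsp, Srebf1, Elovl6, Fasn and Acly spanned ZT15.5 to ZT19.6, and that of Insig2 followed near ZT0.

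**Figure D2:**
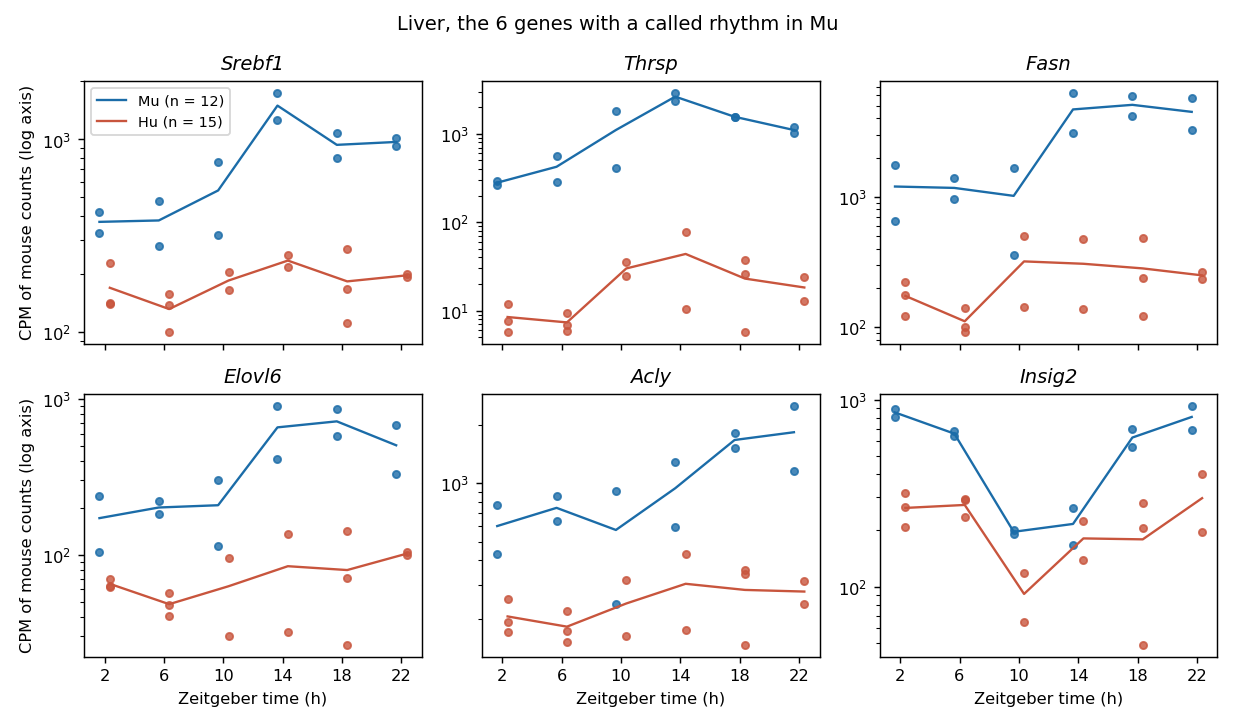
CPM of mouse counts (log axis) against zeitgeber time for the 6 genes with a called rhythm in Mu livers; points are single livers of the Mu (n = 12) and Hu (n = 15) arms, and lines join the means at each time. In Mu livers all libraries from ZT14 to ZT22 were above all earlier ones for Srebf1, Fasn and Elovl6, the Thrsp mean was highest at ZT14 and the Acly mean at ZT22, and Insig2 was lowest at ZT10 and ZT14; Hu values lay lower, and no Hu rhythm was called.

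Over all 33 genes, the median amplitude was 0.32 in Mu and 0.43 in Hu livers, against 0.27 and 0.20 over all genes. The amplitude was smaller in Hu for 15 of the 33 genes, against 63.3% of all genes, and the fitted peak was earlier in Hu for 22, against 57.3% of all genes. Most of these fits were not called, and their phases carry standard errors of several hours. The count of rhythmic genes depended on the scaling: with library size over all rows 0 of the 33 were called in Mu and 5 in Hu, against 0.577% and 58.4% of all genes. With hepatocyte marker scaling 1 was called in Mu and 11 in Hu, against 0.341% and 20.1%. Under each of the alternatives, 0 of the 33 differed in rhythm between the arms.

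Within the 15 Hu livers, levels were fitted against the human share of counts, with time of day in the model. Of the 33 genes, 32 had a negative slope; 10 passed the test, 30.3% against 18.8% of all 13879 genes tested, and Ggps1 had a called positive slope, against 22.9%. Slopes are log2 differences per 10 percentage points of human share. Scd1 had the steepest slope, -0.39 ± 0.14 (SE, adjusted p = 0.0356), and Tm7sf2 followed at -0.35 ± 0.09 (SE, adjusted p = 0.00839). The others called were Sqle, Fdps, Sc5d, Pmvk, Acacb, Hsd17b7, Ebp and Stard4, from -0.33 to -0.17. Srebf1, at -0.09 ± 0.06 (SE, adjusted p = 0.231), and Srebf2, at -0.06 ± 0.03 (SE, adjusted p = 0.161), were not called. Ggps1 had 0.11 ± 0.02 (SE, adjusted p = 0.0021).

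Of the 12 hepatocyte markers, all 12 had negative slopes and 5 were called, with a median of -0.29, against -0.22 for the 33 genes; all 5 stellate markers had called positive slopes. The part of this shift in the members' slopes was not tested. The count of lower genes rested on few libraries: it was 1 without the Hu liver at ZT18 replicate 3, 5 without ZT02 replicate 1 and 18 without ZT10 replicate 1. These 3 counts were not set against the shares of all genes in the same fits. DESeq2 called 19, against 22.5% of all genes. With the replicate number as a block 0 were called lower, against 2.91%, and the median slope of the 33 was -0.11. Ggps1 was called in each of these fits.

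**Figure D3:**
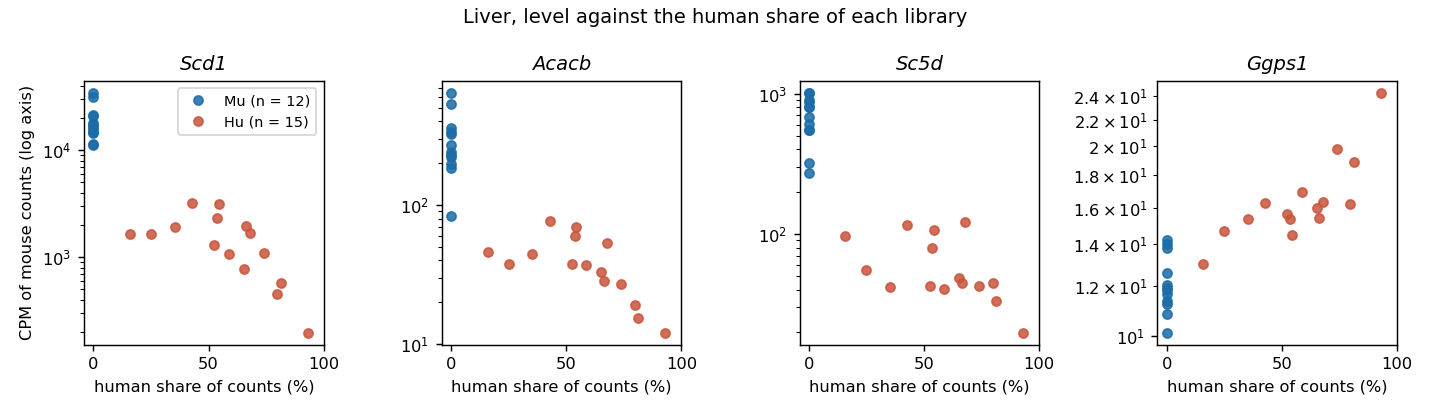
CPM of mouse counts (log axis) for Scd1, Acacb, Sc5d and Ggps1 against the human share of counts of each liver, with Mu livers (n = 12) near 0% and Hu livers (n = 15) from 15.9% to 93.1%. Among the Hu livers, Scd1, Acacb and Sc5d have negative fitted slopes and are lowest in the library at 93.1%, where Ggps1 is highest.

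In skeletal muscle the hepatocytes were not exchanged, so all cells are the host's. Of the 33 genes, 5 were higher in Hu muscle (15.2% against 13.5% of all 14197 genes tested) and 1 was lower (against 13.3%). The higher genes were Acat2, Insig1, Srebf1, Hsd17b7 and Ebp, and the lower one was Insig2. For Srebf1, Mu muscles had 52.4, 89.1 and 152 CPM as lowest, median and highest value, and Hu muscles had 90.1, 146 and 261 CPM. The ranges overlapped, with a difference of 0.70 ± 0.15 (SE, adjusted p = 0.00214). Insig1 had a lowest, median and highest level of 6.89, 16.1 and 113 CPM in the Mu muscles and of 16.7, 27.3 and 113 CPM in the Hu muscles. In both arms a few muscles were several times above the rest for Insig1, and the difference was 0.99 ± 0.33 (SE, adjusted p = 0.029). In Mu muscles the lowest, median and highest Acat2 levels were 3.08, 4.198 and 52.2 CPM, and in Hu muscles 5.11, 14.3 and 34.9 CPM. Acat2, the cytosolic thiolase that makes acetoacetyl-CoA, had a difference of 1.16 ± 0.41 (SE, adjusted p = 0.0384). Levels of Ebp, from lowest over median to highest, were 5.66, 6.18 and 8.52 CPM in Mu muscles and 6.47, 7.19 and 10.3 CPM in Hu muscles. For Hsd17b7, Mu muscles had 4.86, 7.29 and 8.77 CPM as lowest, median and highest value, and Hu muscles had 4.99, 8.88 and 13.4 CPM. Insig2 had a lowest, median and highest level of 46.9, 55.4 and 58.9 CPM in the Mu muscles and of 36.2, 48.6 and 60.1 CPM in the Hu muscles. All 3 overlapped between the arms, with differences of 0.27 for Ebp, 0.37 for Hsd17b7 and -0.16 for Insig2; the adjusted p of Insig2 was 0.0484. Over the 27 fits that left out 1 library, the call was lost in 20 for Insig2, 14 for Acat2, 11 for Hsd17b7, 3 for Insig1 and 0 for Srebf1 and Ebp.

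Of the 9 fatty acid genes 0 were called, with differences from -0.21 for Acss2 to 1.72 for Fasn. In Mu muscles the lowest, median and highest Fasn levels were 24.2, 182 and 7212 CPM, and in Hu muscles 112, 556 and 5132 CPM. The highest Fasn value was thus in a Mu muscle, ZT02 replicate 2, and the difference was 1.72 ± 0.70 (SE, adjusted p = 0.0683). Scd1, Acaca, Elovl6, Thrsp and Acly had values between 1.28 and 1.62, whereas Acacb, the carboxylase of oxidative tissue, was at 0.01. Without the Mu muscle at ZT02 replicate 2, 16 of the 33 genes were higher in Hu muscle. Without other single libraries the count ran from 2 to 8. It was 2 without Mu ZT06 replicate 2, ZT18 replicate 1 or ZT22 replicate 1. These counts were not set against the shares of all genes in the same fits.

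Markers of fat cells and of other cells moved with these values. Of 6 markers, 5 (Adipoq, Plin1, Cidec, Cfd and Retn) were higher in Hu muscle, and Lep was not called; their summed level ran from 8.10 to 835 CPM in Mu and from 104 to 2029 CPM in Hu muscles, and muscle fibre markers ran from 73463 to 148238 CPM in sum in Hu and from 78275 to 119751 CPM in Mu. All 3 tested macrophage markers were higher, with a median of 1.21 and sums from 2.401 to 11.1 CPM in Mu and 5.24 to 30.2 CPM in Hu. All 3 tested endothelial markers were higher, with a median of 0.79 and sums from 58.95 to 98.3 and 77.1 to 145 CPM. Of 5 stellate cell and fibroblast markers, 2 were higher and 2 lower. The part of these 3 lists in the differences was not tested. The highest Mu muscle in fat markers was ZT02 replicate 2, the same library that was highest for Fasn. With the mean log2 level of the fat markers as a term in the fit, 17 of the 33 genes had a called positive slope on it, 51.5% against 7.13% of all genes, and Insig2 had a called negative one, against 2.63%. The slope was 1.197 for Fasn, 1.13 for Scd1 and 1.24 for Elovl6, in log2 units per log2 unit of the markers. In that fit 0 of the 33 genes were called between Hu and Mu, against 5.19% of all genes, 28 of the 33 differences were negative and their median was -0.21. Srebf1 still had 0.51 ± 0.18 (SE, adjusted p = 0.099), and its slope on the fat markers was not called. Without the libraries above 500 CPM of fat markers, 6 were higher (Srebf1, Ebp, Acat2, Insig1, Lss and Me1), against 9.59% of all genes.

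**Figure D4:**
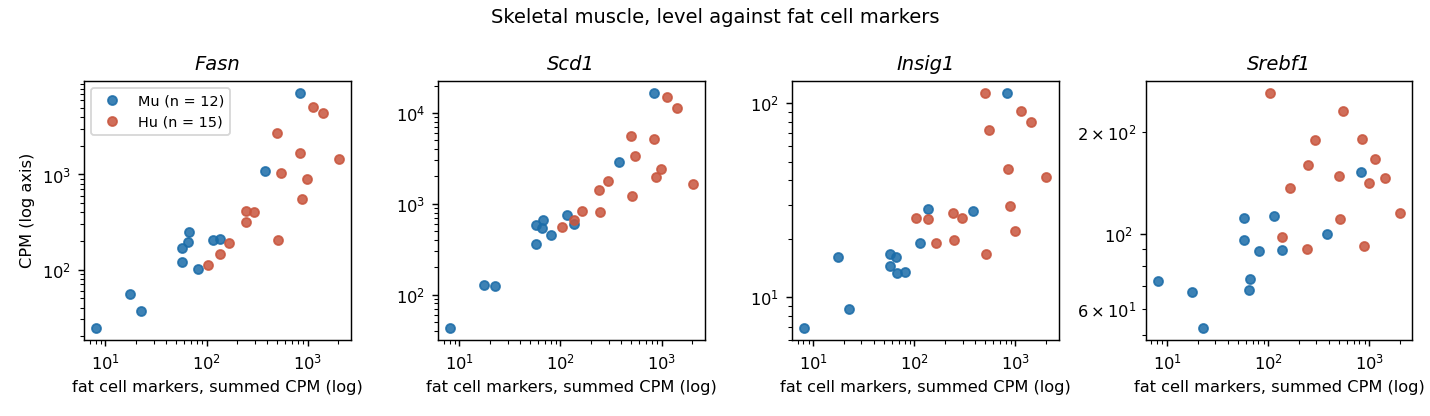
CPM of Fasn, Scd1, Insig1 and Srebf1 in each muscle against the summed CPM of 6 fat cell markers (both axes log), for Mu (n = 12) and Hu (n = 15) muscles. Fasn and Scd1 were lowest in the Mu muscle with 8.10 CPM of markers and highest in the Mu muscle with 835 CPM; the muscle with the most markers, a Hu muscle at 2029 CPM, had 1441 CPM of Fasn, and the spread of Srebf1 is wide at a given marker level.

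Rhythms in muscle were called for 1 gene in Mu, Sqle (against 5.31% of all genes), and for 1 in Hu, Cyp51 (against 7.78%); 0 had a called difference in rhythm, against 0.0704%. Sqle in Mu muscle had an amplitude of 1.51 ± 0.38 (SE) and a fitted peak at ZT0.381 ± 0.944 h (adjusted p = 0.048); it stood at 1.02 and 11.4 CPM at ZT2, 2.42 and 2.45 CPM at ZT6, 1.04 and 0.743 CPM at ZT10, 0.951 and 0.835 CPM at ZT14, 0.969 and 3.11 CPM at ZT18, and 4.08 and 5.37 CPM at ZT22. The highest value was in ZT02 replicate 2, the library rich in fat markers, while the other ZT2 muscle was low. The Sqle call was lost in 21 of the 27 fits that left out 1 library. Cyp51 in Hu muscle stood at 5.16, 6.11 and 7.61 CPM at ZT2, 5.88, 4.32 and 3.44 CPM at ZT6, 4.36 and 5.12 CPM at ZT10, 8.25 and 7.49 CPM at ZT14, 9.64, 7.18 and 29.3 CPM at ZT18, and 4.19 and 10.3 CPM at ZT22. The ZT18 muscles held the highest value, and the fit had an amplitude of 0.80 ± 0.18 (SE) and a fitted peak at ZT18.5 ± 0.917 h (adjusted p = 0.0174); without Hu ZT18 replicate 3 its adjusted p was 0.0833.

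At an unadjusted p under 0.05, 15 of the 33 genes were rhythmic in Mu muscle, 8 in Hu muscle and 11 differed, against 22.7%, 26.6% and 13.8% of all genes. The fitted peak was earlier in Hu muscle for 32 of the 33 genes, Stard4 being the exception, against 60.3% of all genes. For Cyp51, with no called rhythm in Mu, the fitted peak was at ZT0.307 ± 1.38 h in Mu and ZT18.5 ± 0.917 h in Hu. The difference was -5.77 ± 1.66 h (adjusted p = 0.249 for the whole rhythm, not called). For Msmo1, another enzyme of the lanosterol segment, it was -4.45 ± 1.58 h, and for Insig1 -5.73 ± 2.11 h. The genes share libraries, so 32 of 33 is not a count of independent observations. With the fat marker term, 25 of 33 peaks were earlier in Hu. In that fit the Mu and Hu peaks lay closer for these genes. They were at ZT22.5 and ZT18.5 for Cyp51, ZT21.4 and ZT18.2 for Msmo1, and ZT23.4 and ZT19.6 for Insig1. The adjusted p for a different rhythm was 0.479, 0.552 and 0.740.

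The brain libraries only partly matched their labels by markers: all 4 ARC markers were higher in ARC, but of 4 SCN markers Prok2 was higher in SCN, Avp was lower there at -1.299 ± 0.26 (SE, adjusted p = 3.00e-05), and Vip and Nms were not called. Neuron markers were also higher in SCN for 3 of 4, and oligodendrocyte markers, of cells rich in sterol synthesis, for 2 of 6. Stellate cell and fibroblast markers were higher in SCN for 4 of 5, with a median of 1.16, and endothelial markers for 2 of 3 tested, with a median of 0.68. Of 4 astrocyte markers, 2 were higher in SCN and 1 was lower. The part of these cell markers in the differences between regions was not tested.

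In the brain, none of the 33 genes had a called difference between Hu and Mu mice in either region. In ARC 0 of the 33 genes were called for level (against 0.00663% of all 15079 genes), for rhythm in Mu (1.41%) or Hu (0.0995%), or for a different rhythm (0%). At an unadjusted p under 0.05, 2, 4, 3 and 3 genes passed these tests, against 4.24%, 14.5%, 5.87% and 1.78% of all genes, and DESeq2 called 0, 1, 0 and 0, the 1 in Mu rhythm against 3.41% of all genes. In SCN 0 were called in any of the 4 tests, against 0%, 0.207%, 0.00666% and 0% of all 15006 genes; 0, 2, 3 and 0 passed unadjusted, against 2.17%, 11.6%, 5.52% and 1.4%, and DESeq2 called 0. Hu minus Mu differences ran from -0.16 to 0.07 in ARC and from -0.06 to 0.09 in SCN, far narrower than in liver. The most negative was Scd1 in ARC, at -0.16 ± 0.05 (SE, adjusted p = 0.763). Mvk had the highest amplitude in ARC of Mu mice, 0.20 ± 0.05 (SE) and a fitted peak at ZT11.7 ± 0.952 h (adjusted p = 0.0983). The arm difference did not differ between the regions for any of the 33 genes (0 called, against 0.00662% of all genes, and 0 at an unadjusted p under 0.05, against 1.36%; DESeq2 also called 0).

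Between the regions, 12 genes were higher in SCN (36.4% of the 33, against 36.4% of all 15105 genes) and 7 higher in ARC (21.2%, against 36.4%). ARC and SCN libraries of equal arm, time and number may come from the same mouse, and this fit treated them as separate. Counts with a block for these are given at the end. Acly had the largest difference: its lowest, median and highest levels were 220.1, 235 and 253 CPM across ARC libraries, and 286, 563 and 717 CPM across SCN libraries. No SCN library reached down to the ARC range, and the difference was 1.22 ± 0.07 (SE, adjusted p = 4.23e-18). Acly also gives acetyl-CoA for histone acetylation and, in cholinergic neurons, for transmitter synthesis. Lss followed at 0.39 ± 0.04 (SE, adjusted p = 3.78e-12), then Acss2, which makes acetyl-CoA from acetate, at 0.34 ± 0.04 (SE, adjusted p = 2.56e-10). Tm7sf2, Insig1, Dhcr7, Acat2, Nsdhl, Mvk, Fasn, Elovl6 and Srebf1 were higher by 0.30 down to 0.10, and Srebf1 lost its call in 18 of 44 fits that left out 1 library.

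Stard4 was the furthest toward ARC. Its lowest, median and highest levels were 49.9, 55.6 and 72.3 CPM across ARC libraries, and 32.3, 41.4 and 67.8 CPM across SCN libraries; the ranges overlapped, with a difference of -0.43 ± 0.06 (SE, adjusted p = 1.80e-07). Hsd17b7 and Me1 followed at -0.38 ± 0.09 (SE, adjusted p = 0.000401) and -0.30 ± 0.03 (SE, adjusted p = 5.27e-10), and Thrsp, Idi1, Acaca and Ggps1 ran from -0.22 to -0.13.

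**Figure D5:**
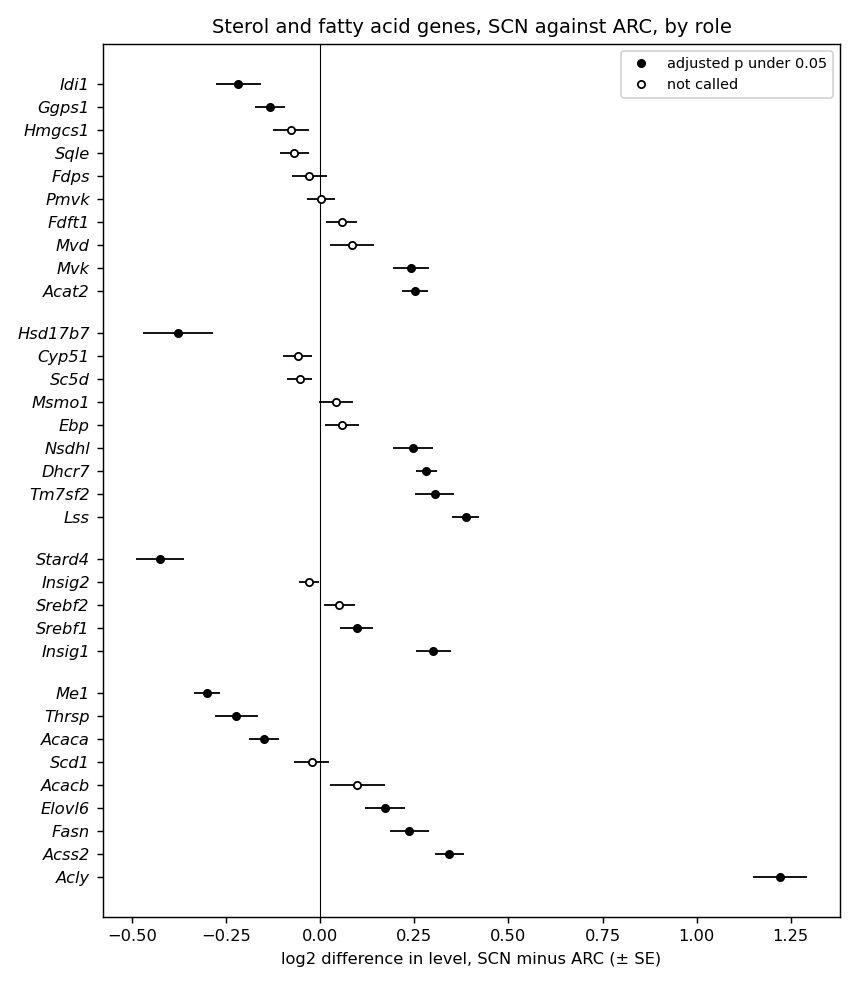
Log2 difference in level between SCN and ARC (SCN minus ARC, with standard errors; 22 libraries of each) for the 33 genes, ordered by role; filled points passed an adjusted p under 0.05. Acly stands apart at 1.22; the other called genes lie between -0.43 and 0.39.

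Across tissues, the order of levels within the set, per exon length, differed. Each tissue was scaled on its own, so only the order within a tissue is given. In Mu livers the highest were Scd1, Thrsp, Fasn and Acly, at 3884, 542, 268 and 201 CPM per kb, and in Hu livers Scd1, Insig2, Me1 and Acly. Thrsp thus ranked 2 of the 33 in Mu livers and, at 9.14 CPM per kb, 23 in Hu livers. In Mu muscle Scd1, Me1, Fasn and Acacb led, at 405, 80.4, 73.6 and 49.4 CPM per kb, and Sqle, the lowest, was at 0.516. Without Mu ZT02 replicate 2, the Mu means were 132 for Scd1, 68.9 for Me1, 47.8 for Acacb and 20.4 for Fasn, which then ranked 4. In both brain regions Acacb was the lowest, at 0.859 CPM per kb in ARC of Mu mice, and Hmgcs1 ranked 2 in ARC at 70.5 and 3 in SCN at 66.5.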

How the data were processed

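The authors deposited 2 tables of raw read counts per Ensembl gene, 1 column per library; the submitters' processing notes name STAR and the builds GRCm38 (mm10), GRCh38 (hg38) and hg19 without roles. The counting program, annotation and strand setting are not given in the sources used here, so reads shared with near-identical copies or antisense genes could not be separated. In liver, mouse rows were analysed with mouse-row library sizes. Tissue, arm and time came from the labels; 2 columns (Hu, ZT22, in ARC and SCN) matched a group but no single sample.

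Each tissue was fitted in edgeR 4.0.16 (R 4.3.3) by the quasi-likelihood F test on deposited counts, after filterByExpr and TMM scaling, with arm and a 24 h cosine and sine per arm. P-values were adjusted by Benjamini-Hochberg over all genes tested. The liver fit was tested on simulated counts in which few genes changed level, equally up and down. That simulation therefore does not bear on the choice of scaling for the liver levels. DESeq2 1.42.0, other scalings, filters, time as a factor, covariates, blocks and single left-out libraries were tried. CPM per kb uses GENCODE M21 exon lengths on GRCm38. Any of the 33 genes may be named; full values are given for called rhythms and, per tissue, the 5 largest called differences each way. The genes and lists were chosen with earlier results of these data known.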

Additional observations from a re-analysis of the deposited data

How the results depend on the processing

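The liver difference depended on the scaling. With hepatocyte marker scaling 4 genes were higher and 13 lower in Hu, and the sign turned for Hmgcs1 (0.13), Mvk (0.48), Idi1 (0.30), Fdft1 (0.0169), Sqle (1.17), Lss (0.18), Cyp51 (0.90), Hsd17b7 (0.31), Insig2 (0.0477), Stard4 (0.0716), Srebf2 (1.57) and Me1 (0.14). With library size over all rows 0 were higher, against 16.9% of all genes, and Ggps1 turned to -0.36. Of all called genes, 53.5% were higher with TMM, 95.8% with marker scaling and 21.7% with all rows. RLE scaling, no filter, DESeq2, time as a factor, replicate block and leaving out Hu livers under 20 M mouse counts or above 70% human share gave 29 lower and 1 higher; single left-out libraries gave 29 to 30 lower and 1 higher. Liver rhythms in Mu were called for 10 genes with the arm alone (against 28.9% of all genes), 0 with all rows and 1 with marker scaling (5 to 7 without single libraries). Liver rhythms in Hu were called for 1 with DESeq2 (against 3.45% of all genes), 5 with all rows (58.4%) and 11 with marker scaling (20.1%). The count was 1 without Hu livers under 20 M mouse counts (0.275%) and 1 without those above 70% human share (0.134%). Without single libraries 0 to 1 were called. The human share slope was lower for 19 genes with DESeq2 and for 1 to 18 without single libraries. Here and below, counts without single libraries were not set against the shares of all genes in those fits. The causes were not tested.

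In muscle, higher genes numbered 8 with DESeq2 (against 15.7% of all genes), 0 with the fat marker covariate and 2 to 16 without single libraries; the covariate turned Acat2 to -0.38 and Insig1 to -0.0264. Lower genes numbered 0 with RLE scaling, no filter, time as a factor, the covariate or without libraries above 500 CPM of fat markers (0 to 1 without single libraries). Rhythms in Mu were called for 0 with no filter, 13 with DESeq2 (against 10.5% of all genes), 6 with the arm alone (13.3%) and 0 with the covariate (0 to 5 without single libraries). Rhythms in Hu were called for 3 with DESeq2, 0 with the arm alone and 2 without libraries above 500 CPM (0 to 4 without single libraries). The ARC rhythm in Mu was called for 1 gene with DESeq2 (0 to 1 without single libraries). SCN against ARC gave 11 to 12 higher and 7 to 10 lower without single libraries. The arm and rhythm tests that had 0 calls in SCN, and level, Hu rhythm, different rhythm and regional interaction elsewhere in the brain, stayed at 0 in each alternative run.

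Replicate numbers are shared between arms. The deviations of same-numbered libraries had a mean correlation of 0.115 in liver, 0.0250 in muscle, 0.130 in ARC and 0.120 in SCN. The lowest was 0.0129 in liver, -0.145 in muscle, -0.159 in ARC and -0.275 in SCN. Where both arms had 2 libraries at a time, both pairs gave the same value, so the mean counts it 2 times. With the replicate block, higher genes in muscle fell to 2, against 12.5% of all genes. With the block of ZT and number they also fell to 2, against 9.02%. The replicate block brought muscle rhythms in Mu to 0, against 4.81%, and lower genes in the human share slope to 0, against 2.91%. SCN against ARC had 12 higher and 8 lower with a block of arm, ZT and number, against 37.0% and 35.1% of all genes. Depth limits the Hu livers, where mouse counts were as low as 7.70 M. The added alternatives on human share above 70% and fat markers above 500 CPM were chosen after seeing the data.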
